A study of Hydra vulgaris with 32 samples.

Results

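A set of 30 loci of the freshwater polyp Hydra vulgaris was examined, whose polyA RNA was partly reduced in animals given colchicine and stayed near the control level in animals given hydroxyurea or heat shock. They were selected on measured values among 14792 loci of a deposited table of normalized signal, of which 8155 reached a mean of at least 270 in the control libraries of day 11. A locus was taken when its colchicine mean lay above 0.125 and at or under 0.4 times the control mean of day 11, every colchicine library lay below every such control library, and the means of hydroxyurea day 11 and of heat shock replicates A, C and D each lay between 0.8 and 1.5 times that control. The colchicine part of this rule was met by 344 loci and the hydroxyurea and heat shock part by 4892 loci. Since these contrasts chose the loci, their sizes are given as a description with no test.

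All libraries came from central body columns, without apical and basal ends, of the thermosensitive strain Sf-1, and all animals were starved from the start. The untreated control was sampled in 3 libraries a day on days 4, 5 and 7 and in 4 on day 11, where the day gives both the time since the start and the length of starvation. Animals received 10 mM hydroxyurea for 3 periods of 24 h with pauses of 12 h, and 3 libraries a day were made on days 4, 5, 7 and 11. Heat shock was 28 °C for 62 h (4 libraries) and colchicine was 0.4% for 8 h (3 libraries). Both were sampled 9 days after the treatment began and after 11 days of starvation, so they share 11 days of starvation, but not the time since treatment, with the day 11 control and hydroxyurea groups. The labels do not say whether replicates came from separate cultures, so p-values measure only the spread between these libraries.

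Hydra tissue is built from 2 epithelial layers, which renew themselves, and from interstitial stem cells that give rise to neurons, stinging cells (nematocytes), gland cells and germ cells. Hydroxyurea inhibits DNA synthesis, heat shock acts on the interstitial cells of thermosensitive strains, and colchicine binds tubulin and blocks the assembly of microtubules. All are used in Hydra to deplete fast cycling interstitial cells. In libraries of whole tissue, fewer cells of a type and less RNA per cell cannot be told apart. The identifiers in the deposited tables are the authors' own, and 0 of them matched a reference table of 28925 Hydra genes, so the loci have no gene names, roles or cell type markers here.

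The 2 shallowest of all libraries were colchicine replicates B and C, with 15.2 M and 13.1 M counts (M, mega), against 23.6 M to 36.6 M in the other 30. Each signal value equals a count times 1 constant per library, so that 1 count stands for 0.669 to 2.80 units, the largest value being that of colchicine C. Heat shock replicate B was left out of the mean by the rule. It lay within the range of the day 11 controls at 10 of the 30 loci, above it at 14 and below it at 6, where over all loci of at least 270 the shares were 26.3%, 35.2% and 38.5%. Heat shock replicate A, which the rule did use, lay below that range at 15 of the 30 and at 41.3% of all loci of at least 270, a similar share.

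The loci spanned a wide range of levels in the day 11 controls, from 271 at loc25348 to 10163 at loc05313, with a median of 555. Locus loc05313 had 9557, 9752, 10449.7 and 10893 in the 4 control libraries of day 11 and 4778, 2207 and 2868 in colchicine A, B and C. Its hydroxyurea day 11 libraries read 15406, 8394 and 9395, and its heat shock libraries A to D read 5855, 9820.3, 12183 and 9239. The colchicine values were thus the lowest of the locus, and the ranges of the hydroxyurea and heat shock libraries enclosed that of the controls. The mean of colchicine stood at 0.323 of the control mean, a 3.09-fold lower level.

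Locus loc17330 was second, with 4293, 4086, 3899 and 3845 in the controls and 1099, 829 and 2759 in colchicine. Its colchicine libraries disagreed, since replicate C was at 0.684 of the control mean while A and B were at 0.273 and 0.206. Locus loc21676 had 3222, 3418, 2993 and 3574 in the controls, 737, 905 and 471 in colchicine, and 3633, 3289 and 3859 in hydroxyurea day 11. Its 3 colchicine libraries were all far under the lowest control, at 0.143 to 0.274 of the control mean. At loc25070 the controls read 3339, 2883, 2840.4 and 2907 and colchicine read 1083, 464 and 669. Hydroxyurea day 11 read 4051, 3200.4 and 3643 at that locus, and heat shock read 1624, 2399.6, 3662 and 3298. Heat shock there was split, with A and B below every control and C above every control.

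Locus loc15572 was the most reduced of the 30, with a ratio of 0.130, just inside the lower limit of the rule. It had 2548, 2710.5, 2775 and 3154 in the controls and 399.6, 462 and 232 in colchicine. Its hydroxyurea day 11 libraries, at 3695, 3682 and 4144, all lay above the controls. Locus loc03664 varied most among the 6 highest: its controls read 3066, 2404, 1104 and 1709, and colchicine read 520.1, 784 and 524. The coefficient of variation (the SD as a share of the mean) over the 9 controls of days 4, 5 and 7 was 15.8% at loc03664 and 7.97% at loc05313.

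**Figure D1:**
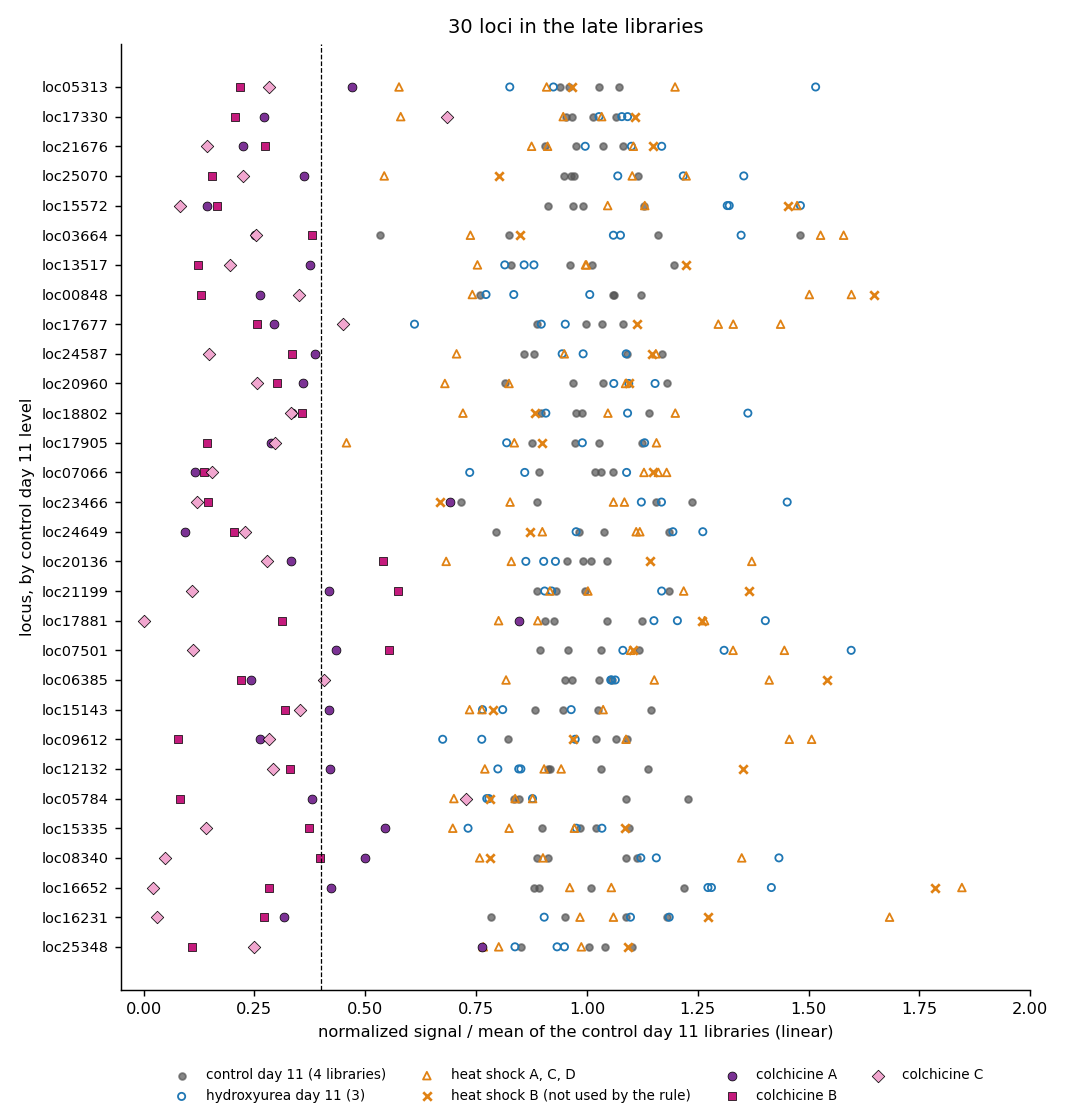
Normalized signal in each late library divided by the mean of the 4 control day 11 libraries (x, linear) for the 30 loci (y, ordered by level), with 1 point per library and the limit of 0.4 dashed. Colchicine points lie left of all control points by the rule, but 1 of the 3 colchicine libraries passes 0.4 at many loci, as loc17330 in replicate C (0.684) and loc17881 in replicate A (0.848).

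**Figure D2:**
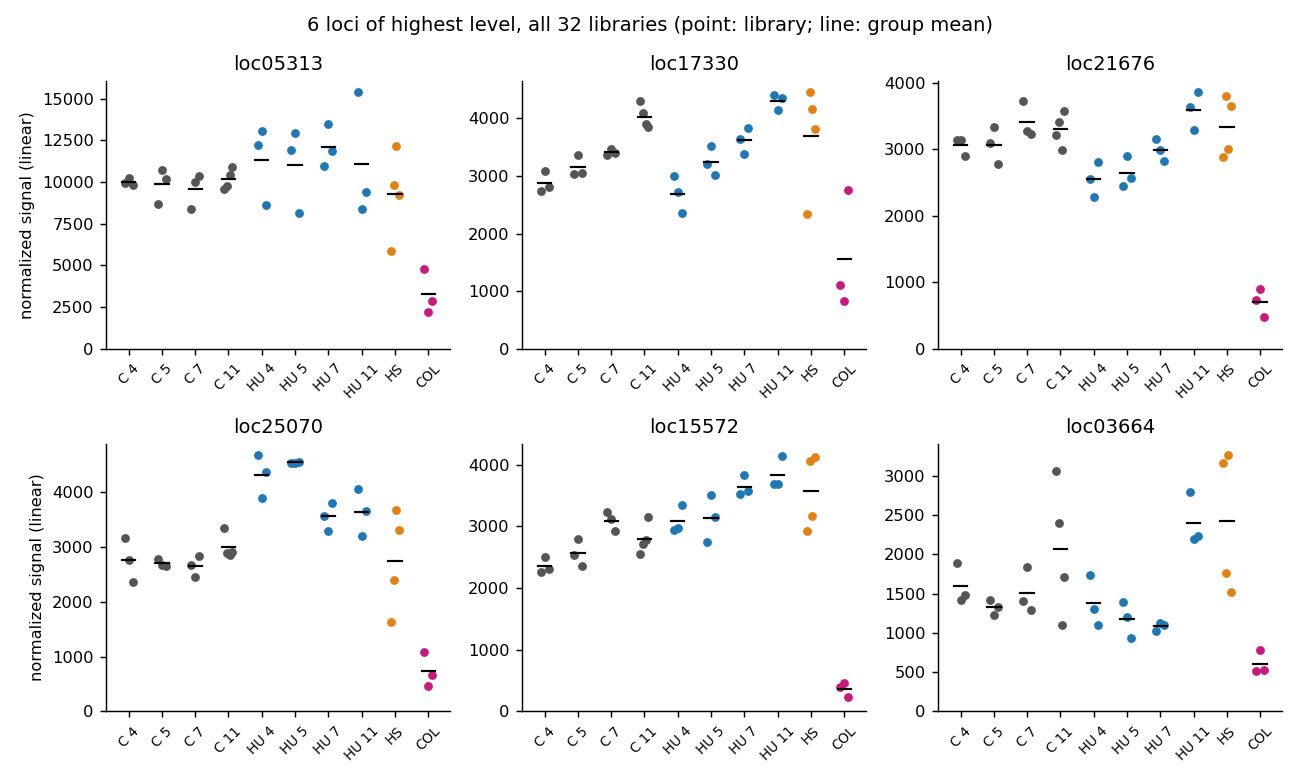
Normalized signal (y, linear from 0) of the 6 loci of highest level in all 32 libraries, by group (x; C, control; HU, hydroxyurea; HS, heat shock; COL, colchicine; numbers are days). Colchicine libraries are the lowest of every panel except for the replicate C library of loc17330 at 2759, which lies among the other groups.

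After loc15572, the most reduced loci were loc07066, loc24649, loc16231, loc09612 and loc21676. Locus loc07066 had 621, 613, 537 and 637 in the controls and 69.6, 82.7 and 92.4 in colchicine, a ratio of 0.136. Its 3 colchicine libraries were close to each other, between 0.116 and 0.154 of the control mean. Locus loc24649 read 573, 654, 439 and 543 in the controls and 51.6, 112 and 126 in colchicine (ratio 0.175). At loc09612 the controls read 402, 385, 310.2 and 411 and colchicine read 99.3, 29.7 and 106 (ratio 0.208). Locus loc16231 had a ratio of 0.206, but its colchicine libraries read 86, 74.2 and 8.4, the last of which is 3 counts. The least reduced loci were loc05784 (ratio 0.397), loc17330 (0.388) and loc17881 (0.387). Just outside the limit, with every other part of the rule met, stood loc13881 at 0.401, loc14922 at 0.407 and loc07409 at 0.408. No gap separates the set from its neighbours at this limit. At the lower limit, 8 loci at or under 0.125 met the other parts of the rule, among them loc24586 at 0.124, loc24712 at 0.112 and loc21674 at 0.105.

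The 3 colchicine libraries were uneven over the loci. The median ratio to the control mean was 0.36 in replicate A, 0.264 in B and 0.238 in C, and over all loci of at least 270 it was 0.943, 1.01 and 1.05. In replicate A 19 of the 30 loci were at or under 0.4, in B 27 and in C 26, and all 3 libraries were at or under 0.4 at 14 loci. The mean that the rule uses can therefore rest on 1 or 2 libraries. Replicate A was the highest colchicine library at 14 of the 30 loci and at 22.1% of loci of at least 270, and replicate C was the lowest at 15 of the 30 and at 28% of those loci. The shares were alike over the 314 other loci that met the colchicine part of the rule, with A highest at 46.8% and C lowest at 51.6%.

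In loc17881 replicate A was 5.41 times the mean of B and C, the highest such ratio of the 30. Its controls read 540.2, 445, 435 and 502, and colchicine A read 407, B 151 and C 0, so that replicate A was only just below the lowest control. A count of 0 in colchicine C allows up to 3 counts, which is 8.4 units of signal. Locus loc23466 read 386, 80.6 and 67.2 in colchicine against 646, 691, 400.5 and 496 in the controls, with replicate A 5.22 times the mean of B and C. Locus loc25348 read 206, 29.7 and 67.2 against 282, 230.2, 298 and 272, and loc16652 read 117, 78.4 and 5.6 against 247, 244, 279.7 and 338. These 4 loci were named for a high replicate A, which was at 0.848 of the control mean at loc17881, 0.690 at loc23466 and 0.763 at loc25348. Replicate A was low against the others at loc24649 and loc17330, whose replicate A to mean of B and C ratios were 0.433 and 0.613. Locus loc06385, with 105, 95.4 and 176 in A, B and C (0.771), and loc07066 (0.795) followed. The part of depth in these differences was not tested. With replicate A as the only colchicine library, the rule took 25 loci, of which 17 were among the 30.

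The 9 controls of days 4, 5 and 7 were not used by the rule. Every colchicine library lay below all 9 of them at 26 of the 30 loci, where 24.1% of loci of at least 270 and 95.9% of the 314 other loci did so. The exceptions were loc17330, loc21199, loc17881 and loc25348. All 3 colchicine libraries were below all of the other 29 libraries at 24 of the 30 loci, where 6.18% of loci of at least 270 were. Part of both shares follows from the rule, since colchicine libraries already had to lie below the day 11 controls. The 29 libraries also include hydroxyurea day 11 and heat shock, whose means the rule held at or above 0.8 times the control.

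Of the 30 loci, 17 had a single sequence that held at least 10% of the locus signal in the day 11 controls, and 13 had 2 or more. A locus in these tables is a number shared by several assembled sequences, and its values are sums over them. The value of a single sequence is uncertain, because reads shared between sequences of a locus could have been divided in any way. In the 17, that sequence held 84.7% to 100% of the locus signal, so its ratios are nearly those of the locus that the rule chose. In the 13 other loci, 32 sequences reached 10%, and 14 of them had both hydroxyurea day 11 and heat shock between 0.8 and 1.5 times the control. Only 9 of the 32 also met the colchicine part of the rule. At 1 of the 13 loci, loc20960, every such sequence was within 0.8 to 1.5 in both other treatments, and at 0 of the 13 did every one meet all ratio limits. All 32 were under 0.8 times the control in colchicine, and 25 were at or under 0.4.

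The label of a reduction by colchicine only did not hold for the sequences of loc17330. Its sequence seq48258 (23.6% of the locus in the day 11 controls) read 835 to 1101 in those 4 libraries, 0 to 4.24 in colchicine, 0 to 0.824 in hydroxyurea day 11 and 0 to 8.06 in heat shock A, C and D. In heat shock B it read 72.4. Its sequence seq48256 (10.7%) read 389.6 to 529.6 in the controls and was at most 14.1 in those same treated libraries, and 53.5 in heat shock B. Both sequences were thus nearly lost in all 3 treatments. The third, seq48259 (64.1%), went the other way in hydroxyurea, with 4046 to 4277 against 2158 to 2897 in the controls and 799 to 2571 in colchicine. As counted, the near-control sum of the locus in hydroxyurea was made of a lost and a raised part of the signal. Whether reads were divided otherwise between these sequences in treated libraries was not tested.

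Days 4, 5 and 7, which the rule did not use, showed the same split at loc17330. The sequence seq48258 read 643 to 1071 over the 9 controls of those days and 0 in each of the 9 hydroxyurea libraries. Against a floor of 3 counts per library it was at least 252-fold lower on day 4, 291-fold lower on day 5 and 325-fold lower on day 7. Its companion seq48256 read 228 to 446 in the 9 controls and 0 to 38.8 in the 9 hydroxyurea libraries. The main sequence seq48259 read 1478 to 2209 in the controls and 2251 to 3751 in hydroxyurea, with no overlap. The loss of signal at seq48258 was thus already seen on day 4, the day on which, by the stated schedule, the last hydroxyurea period ended.

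Locus loc21676 was likewise a sum of unlike sequences. Its sequence seq63798 (25.2%) read 686 to 958 in the day 11 controls, 0 to 33.9 in colchicine, 15.4 to 68.4 in hydroxyurea day 11 and 12.8 to 29.2 in heat shock A, C and D. Over days 4, 5 and 7 it read 629.5 to 917 in the controls and 7.99 to 44.9 in hydroxyurea. Its sequence seq63797 (17.9%) was higher in hydroxyurea on those days, with 812 to 2209 in the 9 treated libraries against 345 to 872 in the 9 controls, and 1 treated library overlapped them. On day 11 it had 1903 to 2419 in hydroxyurea and 274 to 530 in colchicine, against 355 to 738 in the controls. The largest sequence, seq63796 (56.8%), was lower in all 3 treatments, at 0.711 of the control in hydroxyurea day 11, 0.575 in heat shock and 0.152 in colchicine. None of the 3 sequences of the locus kept to 0.8 to 1.5 in both hydroxyurea and heat shock.

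At loc03664 the smaller sequence, seq07281 (45.4%), was at 0.0165 of the control in colchicine and its means in hydroxyurea day 11 and heat shock were at 0.539 and 0.636. Its day 11 controls were scattered, from 367 to 1582, and overlapped the hydroxyurea (384 to 718) and heat shock (349 to 926) libraries, but not colchicine (0 to 46.6). On day 7 its hydroxyurea to control ratio was 0.196. The larger sequence, seq07283, was at 0.526 in colchicine and at 1.68 and 1.82 in hydroxyurea day 11 and heat shock. A contrasting case was loc20960. Its sequences seq61084 and seq61091 held 49.5% and 23.9% of the locus and were at 0.0884 and 0.00524 of the control in colchicine, with both other treatments within 0.8 to 1.5. In colchicine A, B and C seq61084 read 0, 0 and 109, and seq61091 read 3.13, 0 and 0, so that the first was kept in part in replicate C. The smaller sequences of that locus differed, from seq61094 (1.79% of the locus, ratio 0.0175) and seq61089 (5.83%, 0.16) to seq61083 (6.97%, 1.14). Higher still were seq61080 (2.25%, 3.48) and seq61082 (0.589%, 6.28), with low control means of 18.75 and 4.9. They held 25.7% and 12.1% of the locus signal in colchicine, with wide SDs of 64.7 and 53.3 there. At loc13517, loc00848, loc24587 and loc07066 every sequence of at least 10% was at or under 0.4 in colchicine, and between 0.758 and 1.63 in both other treatments, so that their sequences moved more alike.

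**Figure D3:**
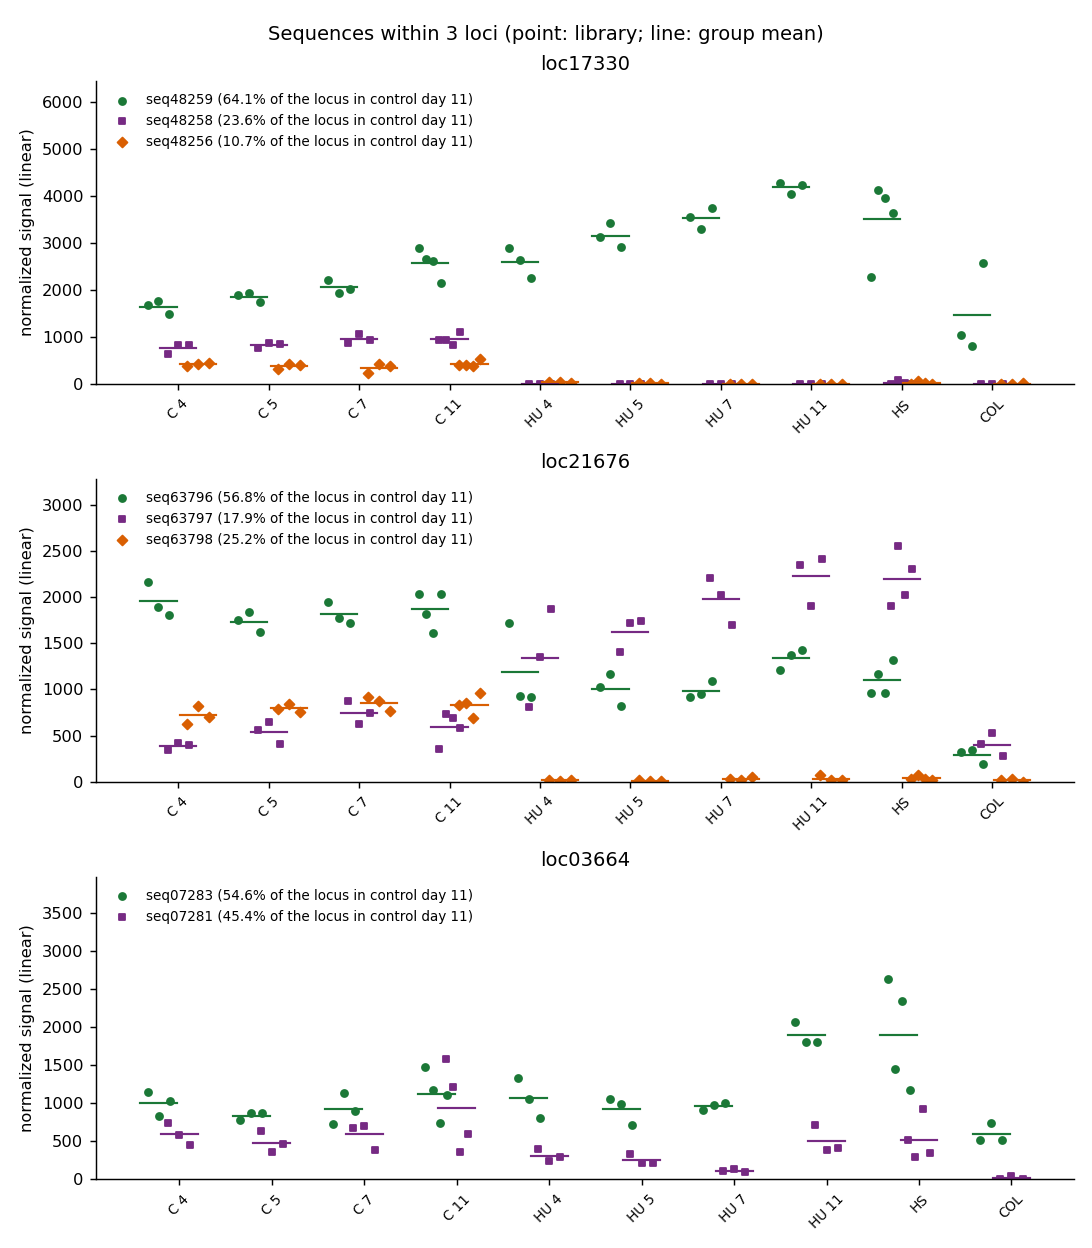
Normalized signal (y, linear from 0) of each sequence holding at least 10% of loc17330, loc21676 and loc03664, in all 32 libraries by group (x; abbreviations as C, control; HU, hydroxyurea; HS, heat shock; COL, colchicine, with days). The sequences seq48258 and seq63798 are near 0 in every treated group, while the group means of seq48259 and seq63797 are higher in hydroxyurea than in the control of the same day.

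**Figure D4:**
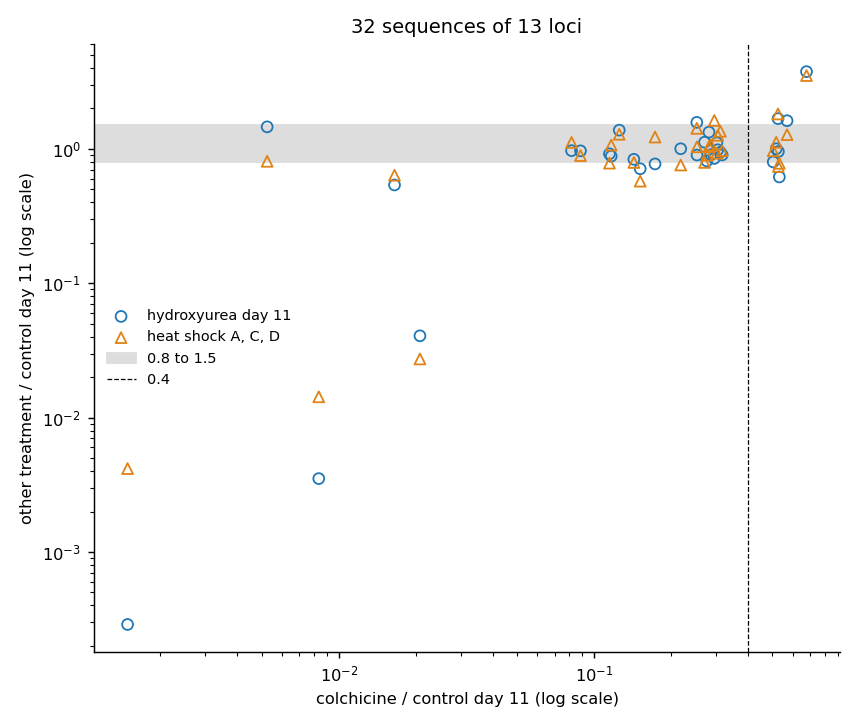
The ratio to the day 11 control in colchicine (x, log scale) against that in hydroxyurea day 11 (circles) and in heat shock A, C and D (triangles; y, log scale) for the 32 sequences of 13 loci. The 3 sequences at the lower left, from loc17330 and loc21676, are at or under 0.05 in all treatments, whereas most others lie in or near the grey band of 0.8 to 1.5.

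On days 4, 5 and 7, in libraries that the rule did not use, hydroxyurea was set against its own day's control. Counts summed per locus were tested with edgeR over 17107 loci, and a locus was called when its adjusted p was under 0.05. The fold changes compare those libraries, but the spread behind SE and p was estimated over all 32 libraries, those of the rule included. In colchicine the 30 varied widely, with a median coefficient of variation of 43%. It was 40.9% for the 314 other loci that met the colchicine part of the rule and 25.6% for all loci of at least 270. Calls in this fit, and with DESeq2 and voom, are thus not independent of the choice. Fits of only the groups compared use no library of the rule. Most of the 30 loci stood slightly above their controls, and few passed the test. On day 4, 1 of the 30 was called, where 18.2% of all loci tested were. The median log2 fold change over the 30 was 0.24, with a range from -0.32 to 0.65, and 21 were positive. Over all loci tested the median was 0.00, and over the 4892 loci within the same hydroxyurea and heat shock limits it was 0.04, with 11.1% called. On day 5, 2 of the 30 were called, where 21.8% of loci were, with a median of 0.25 and 23 positive. Of the 4892 loci within the same limits 15% were called, with a median of 0.07. On day 7, 0 of the 30 were called and 2 had an unadjusted p under 0.05, where 25.7% of loci were called, and the median was 0.13 with 18 positive. Of the 4892 loci within the same limits 17.1% were called, with a median of 0.05. The median of day 4 fell to 0.14 without hydroxyurea B, and that of day 7 to 0.067 without control A. DESeq2 called 2, 3 and 0 of the 30 on the 3 days, where it called 20.8%, 24.2% and 28.1% of loci. With only the groups compared, edgeR called 6, 9 and 8 of the 30, beside 23.8%, 31.2% and 38.6% of loci. Of the 30, 6, 8 and 5 were called higher and 0, 1 and 3 lower in hydroxyurea. With limma's voom and library quality weights 8, 7 and 8 of the 30 were called, beside 30.5%, 35.2% and 41.3%. There 7, 7 and 6 were higher and 1, 0 and 2 lower. The share of the 30 was below that of all loci in each of these fits on each day. It was near that share at several points, as on day 5 with only the groups compared (9 of 30 beside 31.2%). The limits of the rule on hydroxyurea day 11 favour small differences, so nothing is read from these shares. For the DESeq2, compared-groups and voom fits, shares over the 4892 loci within the same limits were not computed.

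The locus called on day 4 by edgeR over all 32 libraries was loc25070. It read 3159, 2754 and 2356 in control libraries A, B and C of day 4 and 4665, 3882 and 4354 in hydroxyurea. The groups did not overlap, and the log2 fold change was 0.65 (SE 0.22, edgeR adjusted p = 0.0435). The call was lost when any 1 of the 6 libraries was left out. On day 5 loc25070 read 2784, 2676 and 2645 in the controls and 4525, 4532 and 4551 in hydroxyurea, a log2 fold change of 0.75 (SE 0.22, edgeR adjusted p = 0.0152). The 3 treated libraries of that day agreed closely, and the call was lost only without control replicate C. On day 7 it read 2666, 2446 and 2823 against 3568, 3293 and 3799, and the value was 0.44 (SE 0.22, edgeR adjusted p = 0.163). With only the groups compared, edgeR called this locus on days 4, 5 and 7 (adjusted p = 0.00577, 8.22e-05 and 0.00465). DESeq2 called it on days 4 and 5 and not on day 7. On each of the 3 days this locus was thus higher in every hydroxyurea library than in the controls of that day. Its colchicine libraries were the lowest of all 32.

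The other locus called on day 5 by edgeR over all 32 libraries was loc06385. It read 384, 458 and 380.1 in the controls and 564, 609.9 and 547 in hydroxyurea, a log2 fold change of 0.50 (SE 0.17, edgeR adjusted p = 0.0383). Its libraries did not overlap on days 4, 5 and 7, but the call was lost without control A or C, or without any 1 hydroxyurea library. With only the groups compared, edgeR called it on days 4 and 5 (adjusted p = 0.0421 and 0.00692), but not on day 7. The next highest values on day 4 were those of loc23466, at 0.59 (SE 0.35), and loc17881, at 0.46 (SE 0.44). Locus loc23466 read 712, 477 and 468 in the controls of day 4 and 1172, 691 and 616 in hydroxyurea, which overlap. Locus loc17881 read 329, 335 and 410.1 against 436, 618 and 450, with no overlap. The lowest values on day 4 were those of loc20136, at -0.32 (SE 0.19), loc21676, at -0.26 (SE 0.15), and loc03664, at -0.20 (SE 0.28). Locus loc20136 read 619, 674 and 669 against 566, 556 and 452, and loc21676 read 3140.2, 3135 and 2903 against 2548, 2288 and 2806, both with no overlap. Neither was called on day 4 by edgeR, over all 32 libraries or with only the groups compared. Voom called loc21676 lower on day 4 (voom adjusted p = 0.0272). With only the groups compared, edgeR called loc20136 lower on day 5 (adjusted p = 0.025). Locus loc03664 read 1890.1, 1420.1 and 1484 against 1740.1, 1301 and 1101, which overlap.

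By the order of libraries alone, every hydroxyurea library lay above every control of day 4 at 11 of the 30 loci and below at 2, where 20.5% and 29.2% of loci of at least 270 did so. On day 5 the counts were 10 above and 1 below, where 26.0% and 31.4% did so. On day 7 they were 11 above and 5 below, where 26.0% and 37.6% did so. The limits of the rule on hydroxyurea day 11 favour small differences, so part of the gap to these shares can follow from the choice. Locus loc25070, with loc17905, loc24649, loc17881 and loc06385, was above on all 3 days, and loc20136 and loc21676 were below on 2 of them. The test of whether the hydroxyurea effect differed between days 4, 5 and 7 called 0 of the 30, where 1.57% of loci were called. Within the same hydroxyurea and heat shock limits, 0.0818% of 4892 loci were called. The unadjusted p was under 0.05 at 1 of the 30, loc07066, and at 6.86% of all loci. DESeq2 and voom also called 0 in that test, and edgeR on only the groups compared called 1, loc13517, beside 4.27% of loci.

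**Figure D5:**
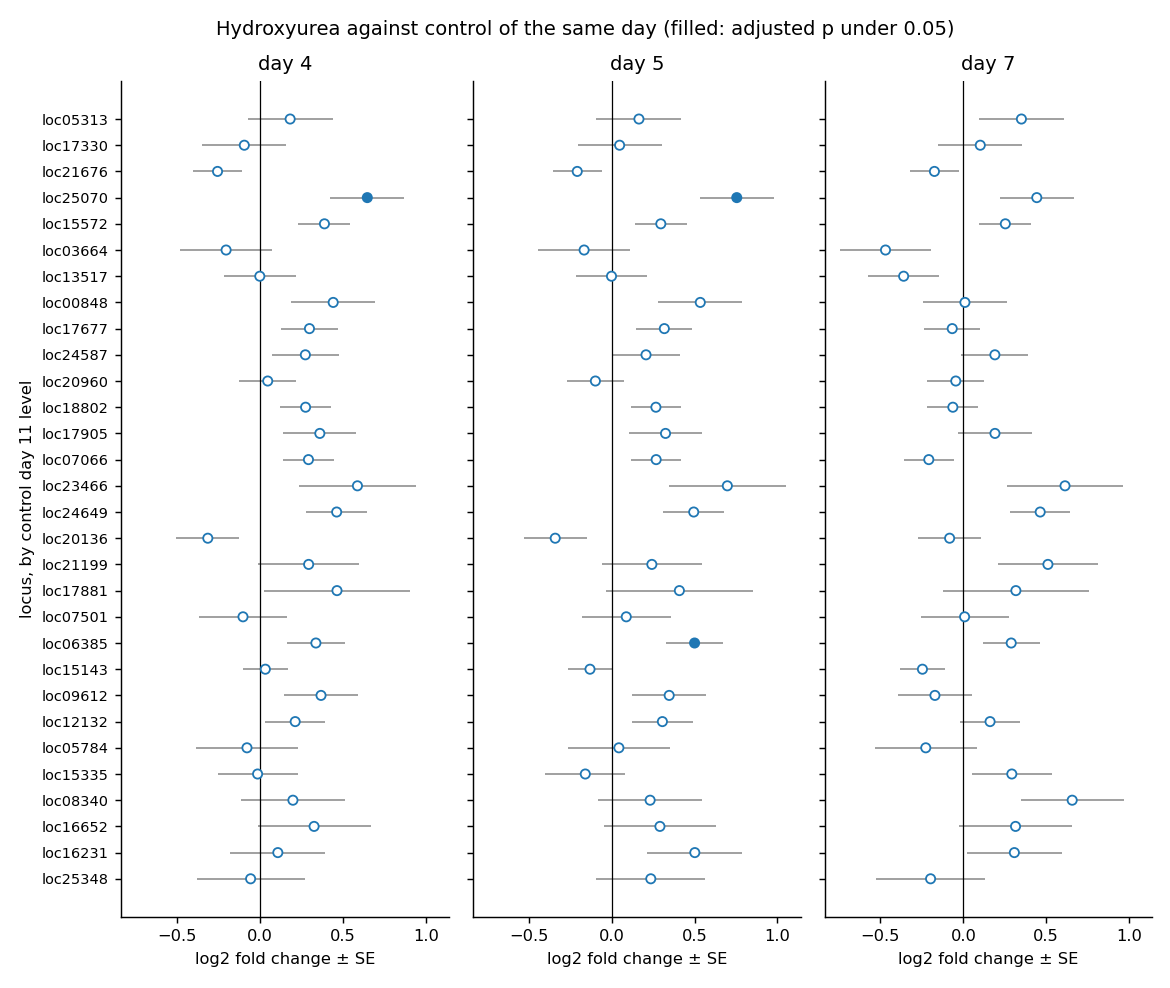
The log2 fold change of hydroxyurea against the control of the same day (x, 3 against 3 libraries) for the 30 loci (y, ordered by level) on days 4, 5 and 7. Bars are the SE, with the spread estimated over all 32 libraries. Points are mostly right of 0 on days 4 and 5 (21 and 23 of 30), and only loc25070 on days 4 and 5 and loc06385 on day 5 are filled as called.

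The untreated controls describe the loci over the days. Time since the start and length of starvation are the same in them and cannot be told apart. Between days 4 and 7, 0 of the 30 were called, where 0.105% of loci were. These libraries are outside the rule, but the spread was again estimated over all 32 libraries. Here 6 of the 30 and 5.44% of all loci had an unadjusted p under 0.05. DESeq2 called 0 of the 30 and 0.378% of loci, and voom called 3 of the 30 and 2.14% of loci. The lowest log2 fold change was that of loc09612, at -0.58 (SE 0.22), and the highest that of loc00848, at 0.54 (SE 0.25). Locus loc09612 read 744, 592 and 706 on day 4, 506, 440.1 and 669 on day 5, 477, 397 and 498 on day 7, and 402, 385, 310.2 and 411 on day 11. Locus loc00848 read 829.6, 1031 and 800.3 on day 4, 1385, 1384 and 1113 on day 7, and 1596, 1601, 1691 and 1144 on day 11. The first of these loci was lower and the second higher on later days, and their colchicine libraries, at 29.7 to 106 and at 195 to 529, lay below the controls of every day. Comparing day 11 with day 4, every control library was higher on day 11 at 10 of the 30 loci and lower at 6, where 10.4% and 17.6% of loci of at least 270 were. The rule used the day 11 controls and favours loci that are high in them, so nothing is read from these counts. The control spread was somewhat wide: the median coefficient of variation over the 9 controls of days 4, 5 and 7 was 11.9% for the 30 loci, 8.47% for all loci of at least 270 and 12.8% for the 314 others that met the colchicine part of the rule.

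Among the 344 loci that met the colchicine part of the rule, the 30 were the smaller share. Of the other 314, 236 were under 0.8 times the control in both hydroxyurea day 11 and heat shock, 20 in hydroxyurea alone and 29 in heat shock alone, and 29 were under 0.8 in neither but over 1.5 in at least 1. All 3 colchicine libraries lay below all of the other 29 libraries at 30.3% of the 314, against the 24 of 30 given above, a difference that the choice of the loci fixes in part. Without the limits of 0.125 and 1.5, 143 loci of at least 270 had colchicine at or under 0.4, with no overlap, and both other treatments at or above 0.8.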

How the data were processed

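The authors deposited whole-number read counts for 79774 assembled sequences and a normalized signal for 31594 of them, in 32 libraries. The submitters' processing notes name cutadapt 1.11, Salmon 0.7.2 and DESeq2, with no settings. Tested against the counts, each column of the deposited signal is the count times 1 constant. Per the labels' protocols, libraries were polyA-enriched and directional. The sequence set and the counting of reads that match several sequences are not given in the sources used here.

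Sequences were summed by locus number with pandas 2.3.3. The signal chose and describes the loci. Up to 9.06% of the counts of a chosen locus lie outside the signal table. Counts were tested with edgeR 4.0.16 (quasi-likelihood F-test, robust, TMM factors from 0.757 to 1.2, filterByExpr with a minimum of 10 counts, all 32 libraries with 1 mean per group, 22 residual degrees of freedom, Benjamini-Hochberg over 17107 loci), in R 4.3.3. Alternatives used DESeq2 1.42.0 and limma 3.58.1, the latter also on log2(signal + 1).

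The loci and lists were chosen with earlier results of these data known. Loci named are the 6 of highest level, the 6 most and 3 least reduced, the 4 lowest and 4 highest in colchicine A against B and C, called loci, the 3 lowest and 3 highest hydroxyurea day 4 changes and the 3 nearest outside 0.4. Other loci named were chosen after their values were seen. Within a locus, sequences of at least 10% of its control signal are described. Some smaller sequences of loc20960 are given as well, chosen after their values were seen. Same-letter libraries of hydroxyurea and control had correlated deviations over 0.1 in all 3 pairs on day 7 (0.359, 0.133 and 0.195), and not on day 4 (lowest 0.0293) or day 5 (-0.0441). No 2 replicates agreed within sampling noise. Counting floors cover counting error only.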

Additional observations from a re-analysis of the deposited data

Results flagged for a closer look

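In groups of 4 libraries, a library was singled out when its gap to the nearest other was a larger part of the range than Dixon's critical value for 4 samples. Of 60 groups examined (30 loci in the day 11 controls and in heat shock), 2 were singled out. A chance rate of 1 in 20 would give 3, but that rate is for values not used to choose the loci. The rule used all of these libraries except heat shock B, so nothing is read from the count. Locus loc25070 read 3339 in control day 11 A against 2840 to 2907 in the other 3 libraries. Locus loc00848 read 1118 in heat shock A against 2265 to 2484 in the other 3.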

How the results depend on the processing

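Membership depended on the limits. It went from 30 to 38 loci with TMM-scaled CPM for the ratios (29 shared), 34 with heat shock B in the mean, 61 with the lower limit for hydroxyurea and heat shock at 0.67 and 57 with a level of at least 100. It was 14 when every colchicine library had to be at or under 0.4, an alternative chosen after seeing the data. Leaving out 1 library gave 27 to 63 loci. The 63 came without colchicine A, with 26 of the 30 shared. The median colchicine ratio of 0.31 ranged from 0.24, without colchicine A, to 0.322. In what follows, the share of all loci called in the same fit is in brackets. The number of the 30 called for hydroxyurea on day 4 was 1 (18.2%). It was 0 with no filter on low counts (10.9%), 2 with DESeq2 (20.8%) and 2 with the replicate block (20.4%). It was 6 with the compared groups only (23.8%), 8 with voom (30.5%) and 0 each time on leaving out 1 library (13.4% to 14.7%). On day 5 it was 2 (21.8%), and 1 with no filter (13.3%), 9 with the compared groups only (31.2%) and 7 with voom (35.2%). It was 1 with replicates B, C and D only (18.3%), and 0 to 2 on leaving out 1 library (15.8% to 17.3%). On day 7 it was 0 (25.7%), and 8 with the compared groups only (38.6%) and 8 with voom (41.3%). For control day 7 against day 4 it was 0 (0.105%), and 1 with the compared groups only (1.14%) and 3 with voom (2.14%). For the effect by day it was 0 (1.57%), and 1 with the compared groups only (loc13517, beside 4.27% of all loci). The median log2 fold change over the 30 ranged from 0.14 to 0.27 on day 4, from 0.20 to 0.29 on day 5 and from 0.067 to 0.17 on day 7 on leaving out 1 library. The lowest came without hydroxyurea B on day 4 and without control A on day 7. The day 4 call of loc25070 was also lost with no filter, at a log2 fold change of 0.64, and that of loc06385 on day 5 with no filter and with replicates B, C and D only. No called value changed sign. Apart from day 4 the replicate block changed no count. Why these counts differ was not tested. The shallow colchicine B and C limit low values there: 1 count is up to 2.80 units.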

Other observations

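Locus numbers close to those of the 30 loci were looked at after their values were seen, and the files do not say what the order of the numbers means. Within 3 numbers of 26 of the 30 loci there were 54 others of at least 270. Of these, 4 had colchicine at or under 0.4, with every colchicine library below every control of day 11, and hydroxyurea day 11 and heat shock at or above 0.8. This is 7.41% of the 54, beside 1.75% of all loci of at least 270. Counting every neighbour at or under 0.4 in colchicine, with no overlap, whatever the other treatments, gave 5 of 54 (9.26%), beside 11.1% of all loci of at least 270. The share of the neighbours was thus the higher on the first measure and the lower on the second. The 4 were loc21674 (colchicine ratio 0.105), loc24586 (0.124), loc18800 (0.0692) and loc09611 (0.0524), next to loc21676, loc24587, loc18802 and loc09612. Another neighbour, loc17328 beside loc17330, was low in all 3 treatments, with ratios of 0.00958 in colchicine, 0.0205 in hydroxyurea day 11 and 0.0271 in heat shock, as were the sequences seq48258 and seq48256 of loc17330. No test was made of these neighbours.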
